A study of Mus musculus with 44 samples.

Results

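Of the 14 rows of the count table that are named as microRNA host genes (symbols that start with Mir and end with hg), 5 were expressed in these mouse CD4 T cells. They are Mir17hg, Mir155hg, Mir22hg, Mir142hg and Mir181a-1hg, out of 55416 rows in all. They were chosen by level: a row was kept where its mean over the 44 libraries was 0.5 CPM or more, CPM being the count as a share of the library total on its usual scale. The means that chose the 5 genes were 37.8 CPM for Mir17hg, 36.3 CPM for Mir155hg, 9.32 CPM for Mir22hg, 7.34 CPM for Mir142hg and 0.750 CPM for Mir181a-1hg. The nearest row below the limit was Mir133a-1hg at 0.0314 CPM, followed by Mir670hg at 0.0265 CPM, and 5 rows held no count at all. The first 4 genes reached the limit in each of the 9 groups. Mir181a-1hg reached it in the 3 Treg groups alone, so its level in Treg cultures against the other cultures is described below without a test.

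Naive CD4 T cells were sorted from spleens of C57BL/6NTac mice and cultured for 3 days on plates coated with antibody to CD3, with soluble antibody to CD28, at 150000 cells per well. Treg cultures also received TGF-beta 1 and antibody to interferon-gamma, Th1 cultures received interleukin-12 and antibody to interleukin-4, and Th0 cultures received no addition. The mice were knock-in (KI), knockout (KO) or wild type (WT) for miR-150, a microRNA of mature lymphocytes. The labels do not say how the KI or KO allele was built, nor the age of the mice. Every group held 5 libraries except Th0 KI with 4, and libraries are named here by culture, genotype and number (Treg WT 4). What a number stands for is not in the labels, so p-values measure the spread between these libraries, which may in part be technical.

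A microRNA host gene is transcribed as a long primary RNA, from which the nuclear enzyme Drosha cuts 1 or more hairpins that Dicer then trims to mature microRNAs. A mature microRNA pairs with messenger RNAs mainly through its seed, bases 2 to 8, and lowers their stability and translation. The libraries were made from polyadenylated RNA, so the values here are those of the host transcripts left after or without processing, and they do not measure the mature microRNAs. In T cells miR-155 is known as a microRNA of activated lymphocytes, the miR-17 to 92 cluster for growth and survival, miR-181a for setting the strength of T cell receptor signals in thymocytes, and miR-142 for being confined largely to blood cells. miR-22 is made in many tissues.

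By annotation 12 hairpins, with 22 mature microRNAs in RefSeq on GRCm38.p6, lie in or overlap the 5 host genes. Of these, 10 hairpins and 19 mature microRNAs lie wholly inside a host and on its strand. The exceptions are Mir142b, on the opposite strand of Mir142hg, and Mir181a-1, of whose 87 bp only the last 11 reach into the annotated Mir181a-1hg. Both mature microRNAs of Mir181a-1 thus lie just before the start of the gene that was counted, at chr1:137966468-137966490 and chr1:137966508-137966529. The sequences below are the best known microRNAs of these loci, shown because the loci differ in their seeds and because several hairpins of 1 locus share a seed. They are written 5′ to 3′ with the seed in capitals.
miR-17-5p (Mir17hg): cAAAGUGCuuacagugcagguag
miR-20a-5p (Mir17hg): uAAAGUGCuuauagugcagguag
miR-18a-5p (Mir17hg): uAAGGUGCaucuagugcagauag
miR-19a-3p (Mir17hg): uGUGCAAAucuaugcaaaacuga
miR-19b-3p (Mir17hg): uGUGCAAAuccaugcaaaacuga
miR-92a-3p (Mir17hg): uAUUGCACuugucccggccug
miR-155-5p (Mir155hg): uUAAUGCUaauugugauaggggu
miR-22-3p (Mir22hg): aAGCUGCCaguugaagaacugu
miR-142a-5p (Mir142hg): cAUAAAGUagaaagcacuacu
miR-142a-3p (Mir142hg): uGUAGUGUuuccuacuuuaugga
miR-181a-5p (just before Mir181a-1hg): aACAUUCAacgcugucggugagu
miR-181b-5p (Mir181a-1hg): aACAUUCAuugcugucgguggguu
Within Mir17hg, miR-17-5p and miR-20a-5p share a seed, and miR-19a-3p and miR-19b-3p share another. miR-181a-5p and miR-181b-5p also share theirs. Among the 22 mature microRNAs there were 19 distinct seeds, and no seed was shared between the 5 loci.

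The positions of the host genes are those of GENCODE release M21 on GRCm38, matched by gene identifier, and all 5 lie on the plus strand. Mir17hg (ENSMUSG00000089726) lies at chr14:115042879-115046727, and its 6 hairpins, Mir17 to Mir92-1, sit in its last exon. Mir155hg (ENSMUSG00000097418) lies at chr16:84703167-84715245 with its hairpin in an exon. Mir22hg (ENSMUSG00000085148) lies at chr11:75461539-75466676 with its hairpin in an exon, and the protein-coding gene Tlcd2 overlaps it on the same strand. Mir142hg (ENSMUSG00000084796) lies at chr11:87755577-87757270, with Mir142 and, on the opposite strand, Mir142b in its intron. Mir181a-1hg (ENSMUSG00000098206), which that annotation calls A430106G13Rik, lies at chr1:137966531-137969918 and overlaps Gm4258 on the same strand and Gm26936 on the opposite strand.

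The hairpin rows themselves said little about their hosts. The rows of the 10 hairpins that overlap an exon of a host never exceeded 1 count in any of the 88 lane columns, whatever the level of the host. The hairpin rows in the intron of Mir142hg differed: Mir142b, annotated on the opposite strand, held 7825 counts over the 44 libraries and Mir142 held 253. No source used here gives the strand setting of the counts, so reads of Mir142b and of its host's strand cannot be told apart.

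Library totals ran from 60815821 to 137415965 counts. From here on, levels are CPM scaled by TMM factors, which adjust library totals for differences in RNA composition. Of 55416 rows, 21873 passed edgeR's filter on low counts and were tested, all 5 hosts among them, with the quasi-likelihood F test of edgeR. P-values were adjusted over all 21873 genes by the method of Benjamini and Hochberg, and a change was called at an adjusted p under 0.05. Every adjusted p in the text is from that test unless another is named. The targeted gene could not check the labels, since its row, Mir150, summed to 7 counts in the 14 KI libraries, 0 in the 15 KO and 6 in the 15 WT libraries. The Treg labels were checked with Foxp3, the defining factor of regulatory T cells. It stood at 47.7 to 596 CPM in Treg libraries and at no more than 4.35 CPM in Th1 and 3.19 CPM in Th0 libraries, so it cannot tell Th1 from Th0. Ifng, which encodes interferon-gamma, ran from 791 to 2985 CPM in Th1. In Th0 it was at most 474 CPM except in Th0 WT 4 (1660 CPM) and Th0 KI 3 (1022 CPM). Tbx21, a Th1 factor, overlapped too, at 68.1 to 120.5 CPM in Th1 and 40.3 to 89.3 CPM in Th0. Neither Ifng nor Tbx21 was called in Th1 against Th0 in any genotype. Of 3 Th1 markers (Ifng, Tbx21 and Il18r1), only Il18r1 was called higher in Th1 than in Th0, in each genotype. Of all genes tested, 2.98% were called higher there in KI, 5.33% in KO and 2.22% in WT. In Treg against Th0, 1 of the 3 was likewise called higher in each genotype, so this count does not single out Th1.

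The libraries Treg KI 3, Treg KO 2 and Treg WT 4 stood apart from the other Treg libraries in Cd8a. Cd8a, which marks CD8 T cells and not the sorted cells, was at 318, 73.1 and 443 CPM in them, against at most 18.4, 15.4 and 23.9 CPM in the other 4 libraries of their groups. The summed level of 8 CD8 T and NK cell markers, all of which passed the filter, reached 684, 461 and 1280 CPM in these 3 libraries, where the medians of their groups were 82.2, 97.7 and 84.3 CPM. Foxp3 was lowest in them, at 61.97, 77.4 and 47.7 CPM, against at least 479, 376 and 159 CPM in the others. Libraries of the same genotype and number had the highest Cd8a of their group in Th1 and Th0 as well, except Th1 KO 2. The summed level of 10 B cell markers was highest of the group in those same libraries in Th1 and Th0 and in Treg KI 3, where it reached 1310 CPM against a group median of 746 CPM. Results that rest on these libraries are given with them and without WT 4, KO 2 and KI 3 of every culture. Treg WT 3 stays in those fits. Its Foxp3 of 159 CPM was below the 519 to 596 CPM of Treg WT 1, 2 and 5. Its Ifng (78.7 CPM) and Tbx21 (38.4 CPM) were above theirs, which were at most 0.886 and 3.30 CPM.

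Markers of other cells also differed between cultures. Of 5 platelet markers, 3 were called lower in Treg than in Th0 in KI, 4 in KO and 3 in WT, with median log2 fold changes of -4.19, -3.28 and -3.25. Their summed level was 1.67 to 5.72 CPM in Treg KI, 1.13 to 5.05 in Treg KO and 1.88 to 5.95 in Treg WT, against 3.93 to 9.56 CPM in Th0 KI, 11.5 to 14.4 in Th0 KO and 2.44 to 21 in Th0 WT. Of 13 myeloid and dendritic markers, 12 passed the filter and 4 of these were called higher in Treg than in Th0 in each genotype. They summed to 11.9 to 47.8 CPM in Treg KI, 8.83 to 27.8 in Treg KO and 14.3 to 61.6 in Treg WT, against 5.03 to 17.9 CPM in Th0 KI, 3.34 to 4.51 in Th0 KO and 3.4 to 11.7 in Th0 WT. Of 6 erythroid markers, 3 were called lower in Treg than in Th0 in KI and none in KO or WT. No marker of these 3 lists was at 0 in every library. The part of these cells in the Treg differences of the hosts was not tested.

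**Figure D1:**
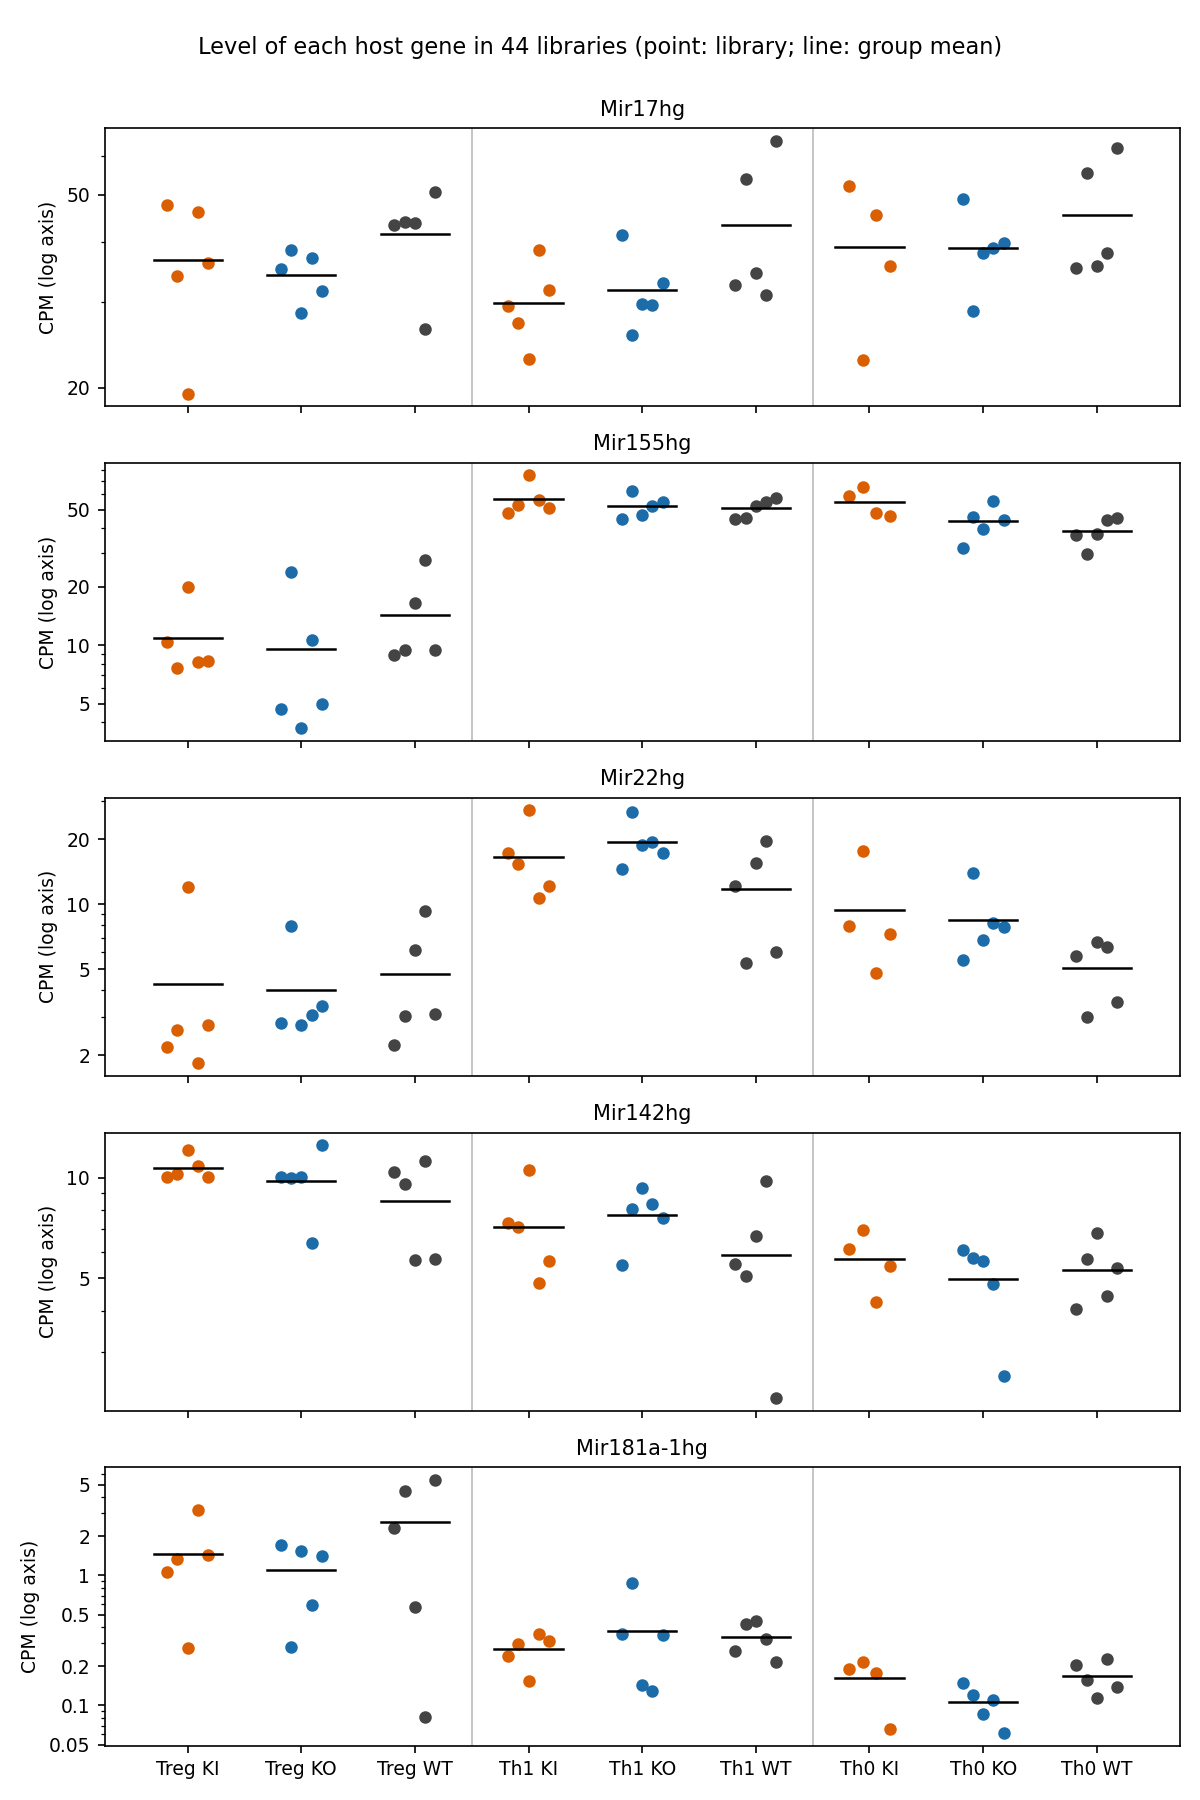
Level of each host gene (CPM with TMM factors, log axis) in the 44 libraries, by culture and genotype. Points are libraries and lines are group means. Mir155hg is lower in all 15 Treg libraries than in any Th1 or Th0 library, and Mir17hg spans 3.32 times over all libraries. The share of all genes whose cultures separate without overlap was not counted.

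Over the 44 libraries the span from the lowest to the highest level was 3.32 times for Mir17hg, 5.72 times for Mir142hg, 14.8 times for Mir22hg, 20.1 times for Mir155hg and 88.4 times for Mir181a-1hg. The lowest count behind any level was 178 for the first 4 hosts and 5 for Mir181a-1hg, so levels of Mir181a-1hg outside Treg rest on few reads. To order the hosts by level, CPM was divided by the annotated exon length in kilobases. In Treg KI cultures Mir142hg led with 39.6 ± 3.2 CPM per kb, ahead of Mir17hg at 10.4 ± 3.2, Mir155hg at 7.63 ± 3.63, Mir22hg at 2.23 ± 2.25 and Mir181a-1hg at 0.433 ± 0.318 CPM per kb (SD, n = 5). In Th0 KI cultures Mir155hg led with 38.1 ± 6.2 CPM per kb, ahead of Mir142hg at 21.2 ± 4.3, Mir17hg at 11.02 ± 3.59, Mir22hg at 4.92 ± 2.96 and Mir181a-1hg at 0.0479 ± 0.0195 CPM per kb (SD, n = 4). The leading place thus went to Mir142hg in the Treg groups and to Mir155hg in the Th1 and Th0 groups, in each genotype. Among neighbours in the order, the libraries of Mir17hg and Mir155hg overlapped in each Treg group, and those of Mir155hg and Mir142hg overlapped in 5 of the 6 Th1 and Th0 groups, Th0 KI being the exception. The place of Mir142hg rests on an annotated exon length of 269 bp.

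Mir155hg, the source of miR-155, was lower in Treg than in Th0 and in Th1 cultures of every genotype. In KI cells it stood at 10.4, 7.67, 20.1, 8.24 and 8.32 CPM in Treg libraries 1 to 5, against 58.6, 65.2, 48.2 and 46.4 CPM in Th0 libraries 1, 3, 4 and 5. In KO cells it stood at 4.70, 23.8, 3.72, 10.7 and 4.97 CPM in Treg, against 31.8, 45.6, 39.95, 55.5 and 44.3 CPM in Th0. In WT cells it stood at 8.88, 9.44, 16.5, 27.4 and 9.50 CPM in Treg, against 37.1, 29.4, 37.2, 44.4 and 45.3 CPM in Th0. The highest of the 15 Treg libraries, at 27.4 CPM, lay below the lowest of the 14 Th0 libraries, at 29.4 CPM, so the cultures did not overlap in any genotype. The share of all genes whose groups separate without overlap was not counted, here or for the hosts below.

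The log2 fold change of Treg against Th0 was -2.32 ± 0.36 in KI (SE, adjusted p = 4.96e-06), which is 4.99-fold lower. It was -2.18 ± 0.34 in KO (adjusted p = 5.92e-06) and -1.43 ± 0.34 in WT (adjusted p = 0.00102), or 4.54-fold and 2.70-fold lower. Called changes were common between these cultures: of all genes tested, 33.6% were called in KI (16.7% higher, 16.9% lower), 33% in KO (17.1% higher, 15.9% lower) and 33.1% in WT (17.4% higher, 15.7% lower).

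Against Th1 the difference was of the same kind. Mir155hg averaged 10.9 ± 5.2 CPM in Treg KI, against 56.5 ± 10.7 CPM in Th1 KI (SD, n = 5 each), and the 15 Th1 libraries lay between 44.8 and 74.9 CPM. The log2 fold change of Treg against Th1 was -2.37 ± 0.35 in KI (adjusted p = 1.92e-06), -2.44 ± 0.35 in KO (adjusted p = 1.31e-06) and -1.83 ± 0.34 in WT (adjusted p = 8.39e-05). The percentages of all genes called in these 3 comparisons were 32.8%, 30% and 30.8%. Between Th1 and Th0, Mir155hg was not called: the log2 fold change was 0.05 ± 0.35 in KI (adjusted p = 0.962), 0.26 ± 0.33 in KO (adjusted p = 0.688) and 0.40 ± 0.33 in WT (adjusted p = 0.632). In a culture of mixed cells, fewer cells that express a gene and less RNA per cell cannot be told apart, here and in every result below.

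Within each Treg group, the library with the highest Mir155hg was the one with the highest Cd8a and lowest Foxp3, namely Treg KI 3 at 20.1 CPM, Treg KO 2 at 23.8 CPM and Treg WT 4 at 27.4 CPM. Leaving out KI 3, KO 2 and WT 4 of every culture, the log2 fold change of Treg against Th0 was -2.57 in KI, -2.86 in KO and -1.75 in WT, so each was further from 0 than with them (adjusted p at most 8.93e-07).

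**Figure D2:**
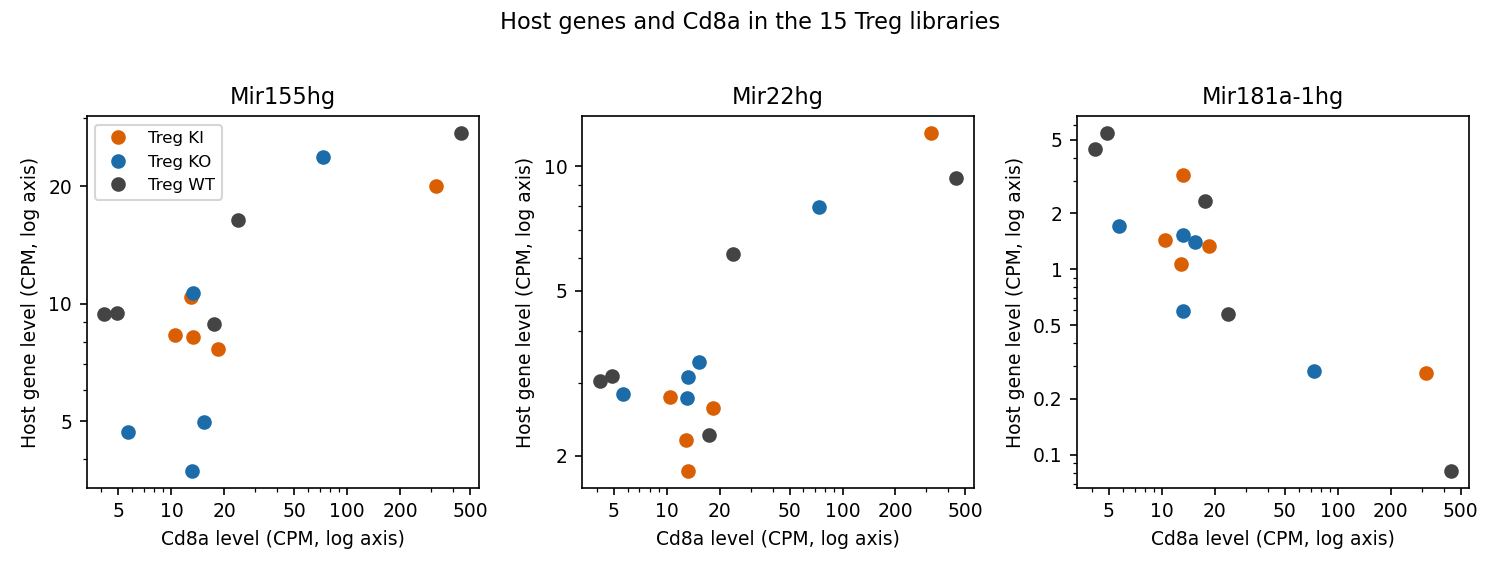
Levels of Mir155hg, Mir22hg and Mir181a-1hg (CPM, log axis) against Cd8a (CPM, log axis) in the 15 Treg libraries, coloured by genotype. The 3 points at the right, with Cd8a of 73.1 to 443 CPM, are the highest of their groups for Mir155hg and Mir22hg and the lowest of their groups for Mir181a-1hg.

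Mir22hg, the source of miR-22, was higher in the Th1 library than in the Th0 library of the same number in every pair, and stood low in most Treg libraries. In KI cells its levels were 17.2, 27.3, 10.7 and 12.1 CPM in Th1 libraries 1, 3, 4 and 5, against 7.96, 17.8, 4.84 and 7.30 CPM in the Th0 libraries of the same numbers, and Th1 KI 2 stood at 15.5 CPM. In KO cells they were 14.6, 26.8, 18.9, 19.5 and 17.4 CPM in Th1, against 5.56, 13.95, 6.83, 8.18 and 7.85 CPM in Th0. In WT cells they were 12.2, 5.34, 15.5, 19.7 and 6.02 CPM in Th1, against 5.78, 3.02, 6.71, 6.35 and 3.55 CPM in Th0. The groups overlapped in KI and WT and not in KO, and the ratio of Th1 to Th0 over the 14 pairs ran from 1.54 to 3.10.

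Fitted without pairs, this difference did not pass the test: the log2 fold change of Th1 against Th0 was 0.81 ± 0.48 in KI (adjusted p = 0.349), 1.197 ± 0.454 in KO (adjusted p = 0.0869) and 1.21 ± 0.45 in WT (adjusted p = 0.16). Same-numbered Th1 and Th0 libraries of a genotype deviated together across all genes. With a block for each genotype and number the values were 0.97 ± 0.23 (adjusted p = 0.00662), 1.25 ± 0.21 (adjusted p = 0.000139) and 1.10 ± 0.21 (adjusted p = 0.00119), all called. They also passed without KI 3, KO 2 and WT 4 in an unpaired fit, at 1.07 ± 0.33 (adjusted p = 0.0421), 1.33 ± 0.30 (adjusted p = 0.00334) and 1.06 ± 0.30 (adjusted p = 0.0476). Leaving out Th0 KI 3 alone moved the KI value to 1.32 (adjusted p = 0.117), and leaving out Th0 KO 2 alone brought the KO call (1.47, adjusted p = 0.0398). In the unpaired fit of all libraries, none of the 15 values of the 5 hosts was called between Th1 and Th0, 4 of them had an unadjusted p under 0.05, and DESeq2 called 2, both in KO. Of all genes tested, 5.92% were called in KI (2.98% higher, 2.94% lower), 9.51% in KO (5.33% higher, 4.18% lower) and 3.04% in WT (2.22% higher, 0.818% lower).

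**Figure D3:**
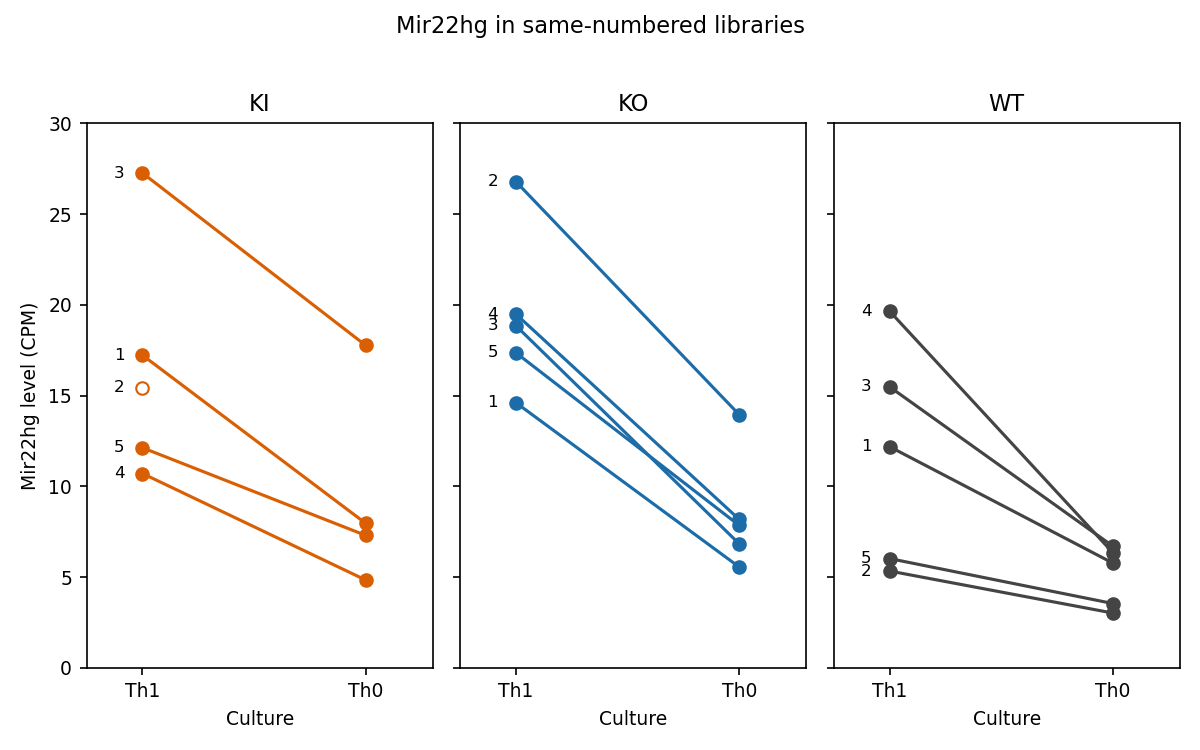
Mir22hg level (CPM) in Th1 and Th0 libraries, with lines joining libraries of the same genotype and number and digits giving the number. Each of the 14 lines is higher at its Th1 end, and the open point is Th1 KI 2, which has no Th0 partner.

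In Treg cultures Mir22hg was lower than in Th1 cultures of every genotype. Its levels in Treg libraries 1 to 5 were 2.18, 2.61, 12.01, 1.84 and 2.77 CPM in KI, 2.82, 7.96, 2.76, 3.09 and 3.37 CPM in KO, and 2.24, 3.04, 6.14, 9.36 and 3.11 CPM in WT. The Treg and Th1 groups overlapped in KI and WT and did not overlap in KO. The log2 fold change of Treg against Th1 was -1.95 ± 0.46 in KI (adjusted p = 0.00119), -2.28 ± 0.47 in KO (adjusted p = 0.00028) and -1.30 ± 0.46 in WT (adjusted p = 0.0273). The WT call was lost in a fit of those 2 groups alone (adjusted p = 0.0847) and without any 1 of Th1 WT 3, Th1 WT 4, Treg WT 1, Treg WT 2 or Treg WT 5 (adjusted p between 0.0626 and 0.0936). It held with a block for each genotype and number (-1.29 ± 0.21, adjusted p = 3.58e-05). Without KI 3, KO 2 and WT 4 of every culture, all 3 genotypes were called. The values were then -2.60 ± 0.32 in KI (adjusted p = 1.69e-07), -2.59 ± 0.31 in KO (adjusted p = 1.9e-07) and -1.44 ± 0.30 in WT (adjusted p = 0.000373).

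Against Th0, Treg was not called, at -1.14 ± 0.47 in KI (adjusted p = 0.0597), -1.08 ± 0.45 in KO (adjusted p = 0.0636) and -0.09 ± 0.45 in WT (adjusted p = 0.906). In KI and KO, same-numbered Treg and Th0 libraries met the limit for pairing, in KI only narrowly. The values there with a block for each genotype and number were -1.30 ± 0.23 (adjusted p = 7.24e-05) and -1.13 ± 0.21 (adjusted p = 0.000113), both called. Leaving out KI 3, KO 2 and WT 4 of every culture, Treg was likewise called lower than Th0, at -1.52 ± 0.32 in KI (adjusted p = 0.000392) and -1.26 ± 0.30 in KO (adjusted p = 0.00133). Single libraries moved these values, to -2.02 without Treg KI 3 (adjusted p = 0.000479), -0.65 without Th0 KI 3 (adjusted p = 0.342), -1.36 without Th0 KI 4 (adjusted p = 0.0353) and, in KO, to -1.52 without Treg KO 2 (adjusted p = 0.0115). DESeq2 called both (adjusted p = 0.042 in KI and 0.0409 in KO).

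Treg KI 3, Treg KO 2 and Treg WT 4 were again the highest of their groups, and the libraries of the same genotype and number led Mir22hg in Th1 and, except WT 4, in Th0. The part of other cells in these libraries was not tested. Tlcd2, which shares exonic sequence with Mir22hg, was not called in any culture comparison, and its correlation with Mir22hg over the 44 libraries was 0.700, on log2 CPM that share a library. With the counts of Tlcd2 and the hairpin added to Mir22hg, an alternative chosen after seeing the data, the Th1 difference from Th0 was smaller and not called, at 0.51 in KI, 0.80 in KO and 0.68 in WT. In that fit Treg against Th0 in KI was called at -1.05 (adjusted p = 0.0491).

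Mir142hg, the source of the blood cell microRNA miR-142, was higher in Treg than in Th0 cultures of each genotype. In KI cells its levels were 10.1, 10.2, 12.1, 10.8 and 10.1 CPM in Treg libraries 1 to 5, against 6.13, 6.96, 4.23 and 5.42 CPM in Th0 libraries 1, 3, 4 and 5. In KO cells they were 10.1, 9.96, 10.03, 6.37 and 12.5 CPM in Treg, against 6.09, 5.76, 5.65, 4.79 and 2.55 CPM in Th0. In WT cells they were 10.4, 9.56, 5.66, 11.2 and 5.72 CPM in Treg, against 4.05, 5.70, 6.84, 4.42 and 5.36 CPM in Th0. The groups did not overlap in KI and KO, and in WT the libraries Treg WT 3 and Treg WT 5 lay within the Th0 range.

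The log2 fold change of Treg against Th0 was 0.91 ± 0.28 in KI (adjusted p = 0.0118), 0.98 ± 0.26 in KO (adjusted p = 0.00387) and 0.69 ± 0.26 in WT (adjusted p = 0.0405), or 1.87-fold, 1.97-fold and 1.61-fold higher. The WT call was the least stable of the called values: it was lost in 11 of 17 alternatives, among them no filter on low counts (adjusted p = 0.063), a fit of the 2 groups alone (adjusted p = 0.0623) and a fit without KI 3, KO 2 and WT 4 of every culture (0.51 ± 0.28, adjusted p = 0.149). Leaving out any 1 of Th0 WT 1, 4 or 5 or Treg WT 1, 2 or 4 also ended it (adjusted p between 0.0601 and 0.0988). Mir142hg was the highest of its group in Treg KI 3 and Treg WT 4. Against Th1, Treg was not called in any genotype, with log2 fold changes of 0.59 in KI (adjusted p = 0.0841), 0.34 in KO (adjusted p = 0.369) and 0.54 in WT (adjusted p = 0.118). The KI value passed in a fit of the 2 groups alone (adjusted p = 0.0302), without Th1 KI 3 (0.75, adjusted p = 0.0307) and without KI 3, KO 2 and WT 4 (adjusted p = 0.0486). The WT value passed without Th1 WT 4 (0.78, adjusted p = 0.0233) and was 0.34 without Th1 WT 5.

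Mir142b, on the opposite strand of the intron, averaged 2.67 ± 0.46 CPM in Treg KI and 1.40 ± 0.21 CPM in Th0 KI (SD, n = 5 and 4), and was called higher in Treg than Th0 in KI (0.93, adjusted p = 0.0437) and KO (0.85, adjusted p = 0.0483) but not in WT (0.57, adjusted p = 0.196). Its correlation with Mir142hg over the 44 libraries was 0.853.

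Mir181a-1hg, whose annotated gene holds miR-181b and starts just after miR-181a, reached its highest levels in Treg cultures, as the limit on expression had required of it. Its levels in Treg libraries 1 to 5 were 1.07, 1.34, 0.276, 3.21 and 1.45 CPM in KI, 1.71, 0.282, 1.54, 0.594 and 1.41 CPM in KO, and 2.34, 4.43, 0.573, 0.0818 and 5.42 CPM in WT. The 15 Th1 libraries held 0.130 to 0.879 CPM (median 0.312) and the 14 Th0 libraries 0.0613 to 0.228 CPM (median 0.144). The log2 fold change of Treg against Th0, as a description, was 3.17 in KI, 3.36 in KO and 3.92 in WT, and that of Treg against Th1 was 2.42, 1.57 and 2.93. The KO value against Th1 was 2.39 without KI 3, KO 2 and WT 4 of every culture. The spread within Treg was wide, with standard deviations of 1.08, 0.628 and 2.34 CPM around means of 1.47, 1.11 and 2.57 CPM in KI, KO and WT (n = 5 each). Treg KI 3, Treg KO 2 and Treg WT 4, the libraries with the highest Cd8a and lowest Foxp3, were the lowest of their groups, and Treg WT 4 lay below 12 of the 14 Th0 libraries.

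Between Th1 and Th0, which the limit did not involve, Mir181a-1hg was not called, at 0.74 ± 0.68 in KI (adjusted p = 0.589), 1.79 ± 0.65 in KO (adjusted p = 0.0747) and 0.98 ± 0.63 in WT (adjusted p = 0.51). DESeq2 called it in KO at 1.81 (adjusted p = 0.0332), as did edgeR on those 2 groups alone (adjusted p = 0.0373). The KO value was 1.19 without Th1 KO 2 (adjusted p = 0.294), which stood at 0.879 CPM where the other 4 Th1 KO libraries stood at 0.130 to 0.352 CPM. Gm4258, which overlaps it on the same strand, held 361 counts in all and had a correlation of 0.737 with it over the 44 libraries.

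Mir17hg, the host of the miR-17 to 92 cluster, varied least, and none of its 24 comparisons was called by edgeR. In 1 of them the unadjusted p was under 0.05, and DESeq2 called none. Its group means lay between 29.99 and 45.4 CPM, and its log2 fold changes between cultures lay between -0.38 and 0.29. Within WT, the libraries numbered 2 and 5 were high in both Th1 (53.9 and 64.6 CPM) and Th0 (55.5 and 62.3 CPM), while the other 3 stood at 31.1 to 34.5 CPM in Th1 and 35.3 to 37.9 CPM in Th0. The same WT numbers 2 and 5 had the lowest Mir22hg in Th1 and in Th0. Mir17hg was lowest in the library KI 3 of each culture, at 19.5, 22.95 and 22.8 CPM in Treg, Th1 and Th0.

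**Figure D4:**
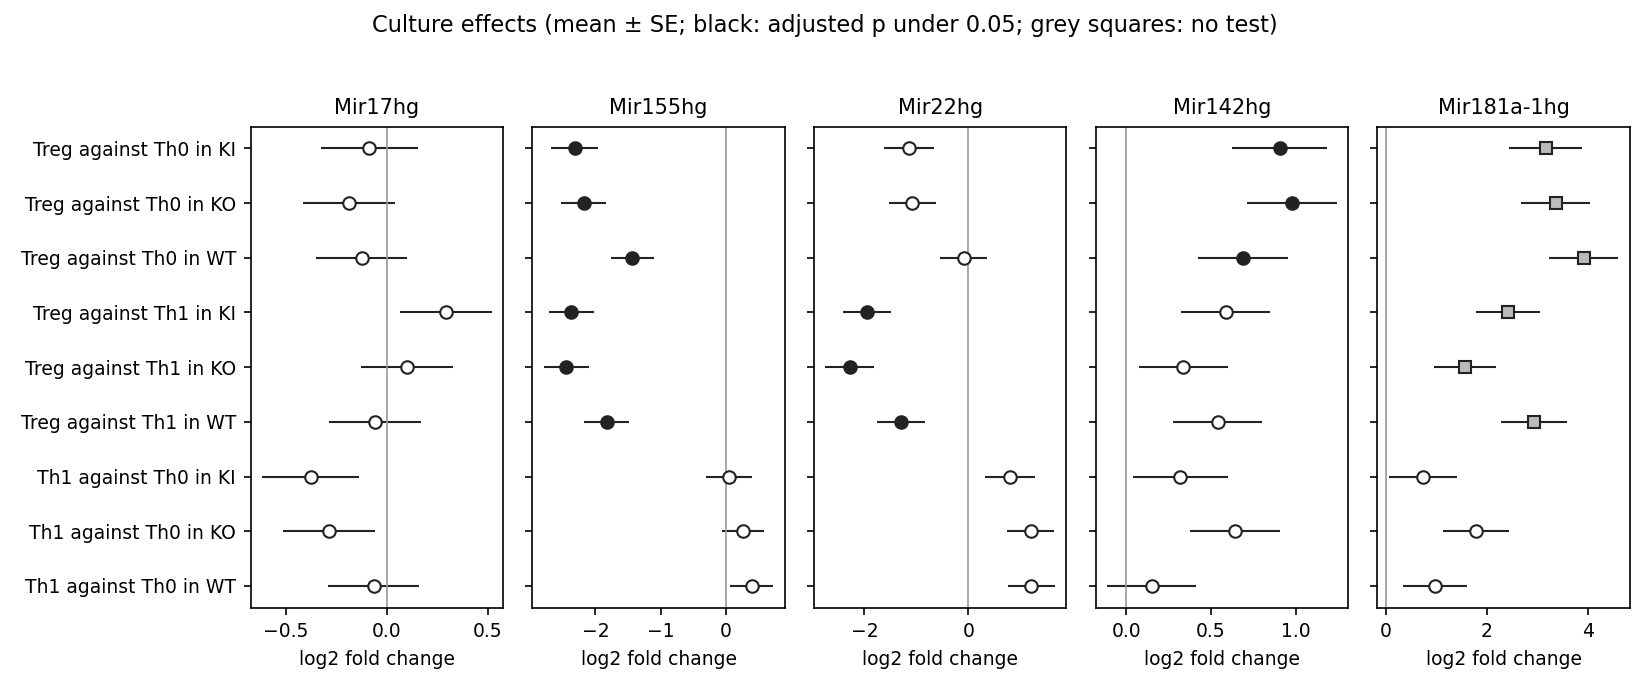
Log2 fold change (± SE) of each host gene in the 9 comparisons between cultures, from edgeR without pairing. Black points passed an adjusted p of 0.05, open points did not, and grey squares mark Mir181a-1hg in Treg, which is shown without a test. Mir155hg lies left of 0 in each Treg comparison, Mir142hg right of 0 and Mir17hg near 0.

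The question the genotypes pose is whether loss or knock-in of miR-150 moves the hosts of other microRNAs. In the 45 genotype comparisons of the 5 hosts, edgeR called none, 1 had an unadjusted p under 0.05 and DESeq2 called none. The background was low: among all genes, 0.512% were called in KI against WT in Th0, 0.0274% in KI against WT in Th1, 0.169% in KO against WT in Treg and 0.0229% in KI against KO in Treg. DESeq2 called more genes in these 4 comparisons, 685, 449, 163 and 59 in the same order. No gene was called (0%) by edgeR in the other 5 comparisons, where 1048 to 2684 genes had an unadjusted p under 0.05 and DESeq2 called 3 to 151.

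B cell markers had higher median levels in KI than in KO in each culture, without passing the test. None of the 10 was called in a genotype comparison, but in KI against KO their median log2 fold change was 2.12 in Treg, 1.85 in Th1 and 2.13 in Th0, with an unadjusted p under 0.05 for 8, 6 and 7 of them. In KI against WT the median was 1.64 in Treg (5 with an unadjusted p under 0.05), 0.76 in Th1 and 0.80 in Th0 (0 in both), and in KO against WT it was -0.35, -0.97 and -1.14 (1, 2 and 3). The summed level of the 10 markers in Treg ran from 561 to 1310 CPM in KI, 307 to 670 CPM in KO and 244 to 628 CPM in WT. In Th1 it ran from 154 to 1450, 55.6 to 492 and 86.4 to 715 CPM in KI, KO and WT, and in Th0 from 283 to 2020, 167 to 753 and 177 to 1420 CPM. The part of B cells in the genotype values of the hosts was not tested.

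The value with an unadjusted p under 0.05 was that of Mir17hg in Th1, where it averaged 29.99 ± 5.80 CPM in KI and 43.3 ± 15.1 CPM in WT (SD, n = 5 each). The log2 fold change was -0.53 ± 0.23 (adjusted p = 0.256), and -0.35 without Th1 WT 5. Th1 WT 2 and Th1 WT 5 lay above the KI range of 22.95 to 38.6 CPM, and the other 3 WT libraries lay within it. Mir22hg was not called in KI against WT in Th0, with 9.47 ± 5.70 CPM in KI and 5.08 ± 1.68 CPM in WT (SD, n = 4 and 5), a log2 fold change of 0.90 ± 0.47 (adjusted p = 0.345). Without Th0 KI 3 the value was 0.40 (adjusted p = 0.848). Mir155hg ran from 46.4 to 65.2 CPM in the 4 Th0 KI libraries and from 29.4 to 45.3 CPM in Th0 WT. The share of all genes whose libraries separate in this way was not counted. The log2 fold change of Mir155hg there, 0.50 ± 0.35, did not pass the test (adjusted p = 0.508).

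In Treg cultures Mir155hg averaged 9.58 ± 8.41 CPM in KO and 14.3 ± 7.9 CPM in WT (SD, n = 5 each), and its log2 fold change of -0.58 ± 0.33 was not called (adjusted p = 0.586). Single libraries with high Cd8a decided this value, since it was -1.29 ± 0.29 without Treg KO 2 (adjusted p = 0.0248) and -0.23 without Treg WT 4 (adjusted p = 0.797). Leaving out KI 3, KO 2 and WT 4 of every culture, it was -0.91 ± 0.23 and called (adjusted p = 0.0457). Mir181a-1hg in Treg averaged 1.11 ± 0.63 CPM in KO and 2.57 ± 2.34 CPM in WT (SD, n = 5 each), with a log2 fold change of -1.21 ± 0.61 that was not called (adjusted p = 0.503), and was -0.75 without Treg WT 5 (adjusted p = 0.932). Mir142hg had log2 fold changes between -0.13 and 0.41 over its 9 genotype comparisons.

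**Figure D5:**
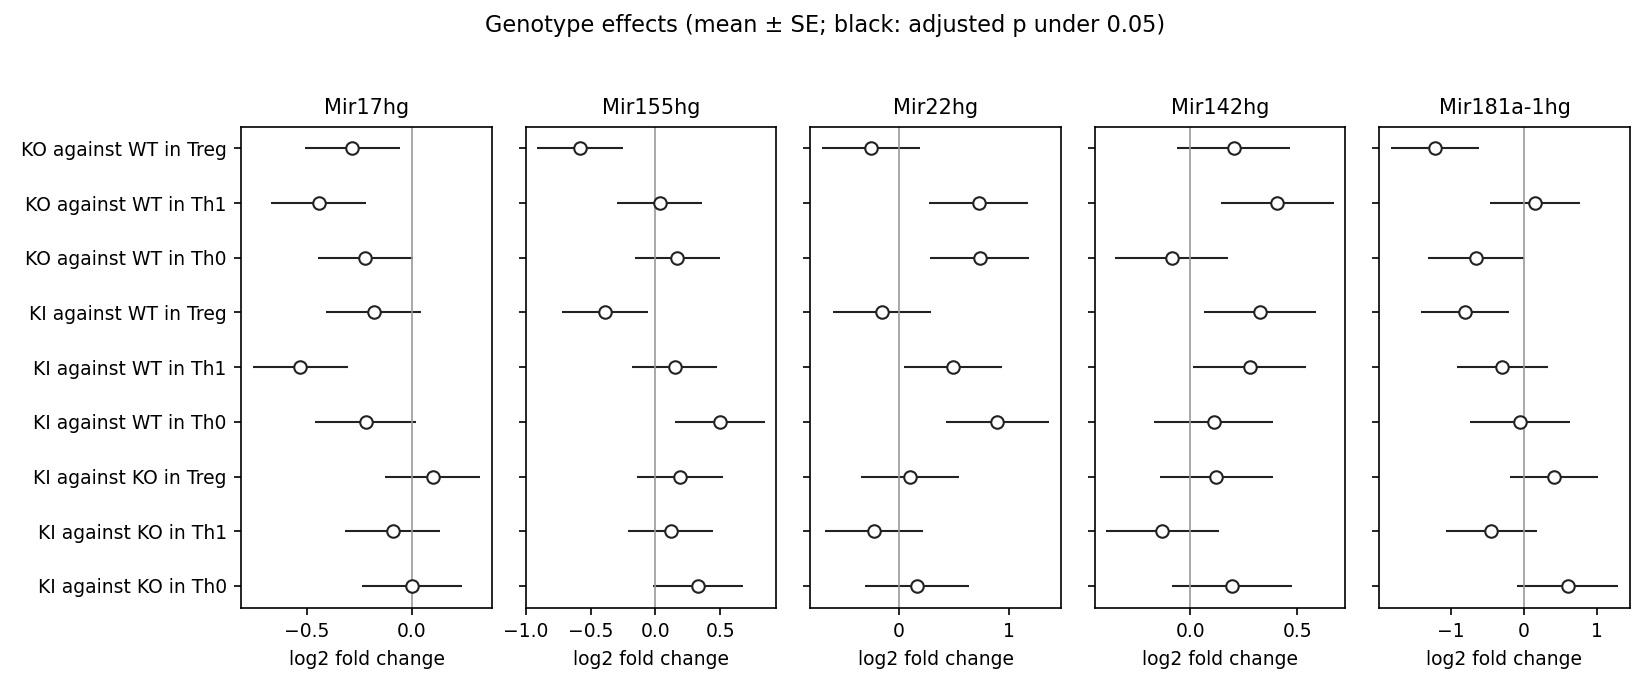
Log2 fold change (± SE) of each host gene in the 9 comparisons between genotypes, from edgeR without pairing. Every point is open, since none passed an adjusted p of 0.05, and the values run from -1.21 to 0.90.

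Whether the KO or KI effect differed between cultures was tested for each host in 6 contrasts. Mir181a-1hg passed the limit through its Treg groups. Its contrasts of Treg with another culture are counted here, but nothing is drawn from them. Of these 30 values edgeR without pairing called none, none had an unadjusted p under 0.05, and DESeq2 called none. Among all genes edgeR called 0% in each of the 6, with 384 to 1402 genes at an unadjusted p under 0.05, and DESeq2 called 1 to 33. For Mir155hg the KI effect in Treg minus that in Th0 was -0.89 ± 0.48, with the lowest adjusted p of the 30 (0.813).

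Since same-numbered libraries of a genotype deviated together between cultures, the differences were also fitted with a block for each genotype and number. This alternative was chosen after seeing the data. The block called none of the 30 either, but 7 then had an unadjusted p under 0.05, all comparing Treg with another culture and all of Mir22hg or Mir155hg. For Mir22hg the log2 KI effect in Treg minus that in Th0 was -1.11 ± 0.31 (adjusted p = 0.419) and minus that in Th1 was -0.98 ± 0.30 (adjusted p = 0.616). Its KO effect in Treg minus that in Th0 was -0.94 ± 0.30 (adjusted p = 0.375) and minus that in Th1 was -1.09 ± 0.30 (adjusted p = 0.23). For Mir155hg the KI effect in Treg minus that in Th0 was -0.81 ± 0.38 (adjusted p = 0.513), and the KO effect in Treg minus that in Th0 was -0.93 ± 0.37 (adjusted p = 0.513) and minus that in Th1 was -0.79 ± 0.37 (adjusted p = 0.496). Among all genes the block called 0.00914% for the KO effect in Treg minus that in Th0 and 0% in the other 5, with 527 to 2050 genes at an unadjusted p under 0.05. Neither fit thus called a dependence of the culture differences on genotype, leaving aside Mir181a-1hg in Treg. Treg with Th0 in WT and Treg with Th1 did not meet the limit for pairing.

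The genes whose log2 CPM over the 44 libraries was most like that of each host were found among 9666 genes with a mean log2 CPM of 2 or more, as a description in libraries that share culture, depth and makeup. Mir155hg was most like Dusp16 (r = 0.945), a phosphatase of MAP kinases, Map3k20 (r = 0.945), a stress kinase, and Zeb2 (r = 0.944), a zinc-finger transcription factor. Mir22hg was most like Piwil2 (r = 0.962), Galc (r = 0.959) and Basp1 (r = 0.946). Mir181a-1hg was most like Usp27x (r = 0.908), Nucb2 (r = 0.906) and Mypopos (r = 0.905). For Mir142hg they were Zfp414 (r = 0.919), Hcfc1r1 (r = 0.913) and Acaa1a (r = 0.910), and for Mir17hg Cbx1 (r = 0.866), Bclaf1 (r = 0.864) and Eny2 (r = 0.863). Among the hosts themselves, Mir155hg and Mir22hg went together (r = 0.787) and Mir155hg and Mir181a-1hg went apart (r = -0.774). Mir181a-1hg had passed the limit through its Treg levels, so its correlations, that with Gm4258 included, are not independent of that choice.

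Transcription factors reported to drive these hosts were listed as a group of 19. This list and those of the next paragraphs were chosen with earlier results of these data known. Their counts are therefore a description. In Treg against Th0 in WT, where 17.4% of all genes tested were called higher and 15.7% lower, 3 of the 19 rose and 5 fell. The median log2 fold change of the list was -0.16, against 0.02 over all genes tested. Foxp3, reported to act on Mir155hg in regulatory T cells, rose by 7.69 ± 0.69 and E2f2, of the E2F family that drives the miR-17 to 92 cluster, rose by 1.12 ± 0.19. Batf, an AP-1 factor of activated T cells, fell by 1.84 ± 0.35 and Fosb, another AP-1 member, fell by 0.94 ± 0.37 (adjusted p at most 0.0482 for these 4). In Th1 against Th0 none of the 19 was called in WT or KI, and 1 fell in KO, where 4.18% of all genes were called lower.

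Reported targets of the microRNAs in T cells formed a list of 19 genes, also chosen with earlier results of these data known. It pools targets of microRNAs from different hosts, and whether a microRNA moved any of them was not tested. In Treg against Th0 in WT, 10 of the 19 rose and 3 fell, beside 17.4% and 15.7% of all genes, with a median log2 fold change of 0.53, against 0.02 over all genes. Maf, a factor of helper T cell cytokine genes that is a reported miR-155 target, rose by 6.40 ± 0.79. Tgfbr1, a TGF-beta receptor, rose by 3.54 ± 0.38 and Rora, a nuclear receptor, by 2.04 ± 0.32, while Gfi1, a transcriptional repressor, fell by 1.51 ± 0.42 (adjusted p at most 0.00457). The counts were 12 up and 2 down in KI, beside 16.7% and 16.9% of all genes, and 10 up and 2 down in KO, beside 17.1% and 15.9%. In Th1 against Th0 in WT, Jarid2 (1.197 ± 0.173), Bcl2l11 (1.14 ± 0.28), which encodes the death protein Bim, and Peli1 (0.65 ± 0.14) rose and none fell, with adjusted p at most 0.014, beside 2.22% of all genes called higher.

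Of 25 other genes that carry a microRNA in an intron, 10 rose and 2 fell in Treg against Th0 in WT, where 17.4% and 15.7% of all genes did, and the median log2 fold change was 0.07, against 0.02 over all genes. Arrb1 (1.46 ± 0.54), Ctdsp2 (1.41 ± 0.29) and Dleu2 (1.25 ± 0.18), the host of miR-15a and miR-16-1, rose, and Tmem245 (-0.89 ± 0.20) fell, with adjusted p at most 0.0335. In Th1 against Th0 in WT, Lpp (1.63 ± 0.30) and Pank2 (0.46 ± 0.12) rose, with adjusted p at most 0.02, beside 2.22% of all genes called higher. Across the 9 genotype comparisons no gene of the 3 lists was called by edgeR, out of 567 values. Of these, 59 had an unadjusted p under 0.05, where 1048 to 3558 of the 21873 genes tested did in each comparison.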

How the data were processed

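Per the labels' protocols, stranded libraries of polyadenylated RNA were sequenced from both ends to 150 bp. Reads were aligned with STAR, per the file headers. The authors deposited whole-number counts per gene, in 2 lane columns per library, which were summed. No source used here names the counting tool, its strand setting or its annotation, and the whole numbers may be rounded estimates. The submitters' processing notes name GRCh38, while the gene identifiers are of mouse. A deposited normalised table was not used. No libraries of a group were copies (86 pairs).

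The members and lists were chosen with earlier results of these data known. The test was that of edgeR 4.0.16 (R 4.3.3; TMM factors, default filter by group, 1 model of 9 group means over 44 libraries, quasi-likelihood test, 24 contrasts, Benjamini-Hochberg adjustment), and the SE is the log2 fold change divided by the square root of F. Alternatives were DESeq2 1.42.0, its size factors, no filter, only the groups compared and a block. Each library was also left out, as were the libraries WT 4, KO 2 and KI 3 together. The block had a term per genotype and number for comparisons of cultures, and a term per number for the others. Adding overlapping rows, and a block by genotype and number for the differences of effects, were chosen after seeing the data. The script for the tests was tested on simulated data. Named genes are all members, up to 4 called genes of each list by size of change in Treg or Th1 against Th0 in WT, and the 3 genes most like each member.

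Pairing was checked by the correlation of same-numbered libraries' deviations from their group means. It was 0.245 to 0.422 for Th1 with Th0 in WT, 0.185 to 0.494 in KO and 0.147 to 0.552 in KI, and 0.107 to 0.286 for Treg with Th0 in KO and 0.1 to 0.398 in KI, and these comparisons were taken as paired. Treg with Th0 in WT and Treg with Th1 fell short of the limit, a lowest pair above 0.1, and were not. Their lowest pairs were 0.0816 to 0.0944. Their same-numbered libraries still deviated together, with mean correlations of 0.159 to 0.221, against -0.0551 to -0.0384 for other numbers. The best match was the own number in 4 of 5 libraries in WT and 5 of 5 in KO and KI. Among the comparisons taken as paired, it was the own number in 3 of 4 libraries for Treg with Th0 in KI and in every library otherwise. The lowest pair of Treg with Th0 in KI, 0.1 when rounded, lay close to the limit, so the split into paired and not paired is narrow. The genotype comparisons had 0 to 2 matches with the own number and were not paired.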

Additional observations from a re-analysis of the deposited data

Results flagged for a closer look

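In 3 of 45 sets (5 hosts in 9 groups), 1 library lay further from its group than Dixon's test at 95% allows, where chance gives about 1 in 20. Mir22hg stood at 12.01 CPM in Treg KI 3, with the next library of the group at 2.77 CPM. It stood at 7.96 CPM in Treg KO 2, with the next at 3.37 CPM. Mir155hg stood at 20.1 CPM in Treg KI 3, with the next at 10.4 CPM. These are the libraries with the highest Cd8a and the lowest Foxp3 of their groups, and the part of those cells in the values was not tested.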

How the results depend on the processing

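Outside the Treg differences of Mir181a-1hg, the 12 called values of single hosts kept their sign in every alternative run, and 10 kept their call in all of them; the exceptions were Mir142hg in Treg against Th0 and Mir22hg in Treg against Th1, both in WT. Of the 72 values not called, 63 were not called in any alternative and 24 changed sign in at least 1. The number of hosts called in Th1 against Th0 was 0 in KI, 0 in KO and 0 in WT. With the block for each genotype and number it was 1, 1 and 1. Without the libraries WT 4, KO 2 and KI 3 it was also 1, 1 and 1. The host was Mir22hg each time. In KO it was 2 by DESeq2 and 2 with only the groups compared, and leaving out 1 library at a time gave 0 to 1, the 1 being without Th0 KO 2. For KO against WT in Treg the number was 0, but 1 without the libraries WT 4, KO 2 and KI 3, and 0 to 1 with 1 library left out, the 1 being without Treg KO 2. In comparisons that fell short of the limit for pairing, the block ended the call of Mir142hg in Treg against Th0 in WT (adjusted p = 0.0551). It also brought a call of Mir142hg in Treg against Th1 in KI (0.64, adjusted p = 0.0479). The block changed no other call of a host than those named here and in the text. The rule chose 5 hosts with either lane alone, with TMM-scaled CPM and at a limit of 0.25 CPM, and 4 at a limit of 1 CPM. Counts of 5 to 479 limit the precision of Mir181a-1hg. In the 18 comparisons of 2 groups, the median log2 fold change of all genes lay within 0.0637 of 0 in each alternative.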
